A study of Mus musculus with 8 samples.

Results

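The junctions described here lay on chromosome 14, more than 20 Mb from the bait end at site 1. In translocation sequencing a biotinylated primer beside a Cas9 break reads out across the break, and the sequence found after it, the prey, shows where the broken end was joined. The bait end was at chr14:98168726 on mm10, inside Dach1, which encodes a transcriptional regulator. It was placed by on-cut reads of the library with a non-targeting sgRNA, and the cut itself was not located. A junction was the 5′ end and strand of a prey read in the off-cut lists, with repeated reads collapsed, and its distance was taken along the chromosome from the bait end. Of 5648 distinct off-cut junctions in the 4 site 1 libraries, 604 met this rule, and the whole series held 11310 distinct junctions.

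All libraries came from Neuro-2a, a mouse neuroblastoma cell line, transfected transiently with a plasmid that carried Cas9, an sgRNA and a GFP reporter, and collected after 48 h as GFP-positive sorted cells. The 92Q and 10Q libraries carried the site 1 sgRNA and a plasmid for ataxin-7 with an expanded (92Q) or a normal (10Q) polyglutamine tract, the sgRNA-only library carried the site 1 sgRNA and no ataxin-7 plasmid, and the non-targeting library carried a non-targeting sgRNA and was read with the same site 1 bait primer. Each library was 1 pool of 3 transfections, so no condition had a replicate, and every test below compares libraries and not conditions. The series' design text names the site 2 and non-targeting sgRNAs alone for the quality control, so what the sgRNA-only library is rests on its label.

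A double-strand break is mostly repaired by rejoining its own ends, but an end can also be ligated to another break, which gives a deletion, an inversion or a translocation. Each chromosome occupies a territory of its own in the nucleus, so that sequences of 1 chromosome meet each other more often than they meet those of other chromosomes, even at long distance. Ataxin-7 is a subunit of the SAGA chromatin-modifying complex, and its expanded polyglutamine tract causes spinocerebellar ataxia type 7.

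The site 1 sgRNA and bait primer are shown first because they were used to make the break and to read from it. Both come from the labels' protocols, and the capitals in the sgRNA are the 12 bases nearest the PAM. Neither was aligned here, and the bait end was placed by the non-targeting on-cut reads.
site 1 sgRNA: ggtagacaTCAGCGCTGTTG
site 1 bait primer: actaaaaagagcgcccctctttc

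The libraries differed widely in size. The off-cut lists held 695 reads in the 92Q library, 4745 in 10Q, 2848 in sgRNA only and 216 in non-targeting, which collapsed to 605, 3054, 1880 and 109 distinct junctions in the same order. The distant junctions numbered 29 in 92Q (30 reads), 384 in 10Q (604 reads), 183 in sgRNA only (273 reads) and 8 in non-targeting (10 reads). They made up 4.79% of the distinct off-cut junctions in 92Q, 12.6% in 10Q, 9.73% in sgRNA only and 7.34% in non-targeting. Intervals are 95% intervals (exact Poisson for counts, Clopper-Pearson for shares, conditional binomial for ratios). They cover counting error alone, because each condition had 1 library and so no replicate spread. Reads amplified by PCR without molecular identifiers may also stem from 1 molecule, which the intervals do not take into account. Around the 20 Mb limit, the nearest member lay at 20690339 bp in 92Q, 20228915 bp in 10Q and 20103720 bp in sgRNA only, and the nearest junction left out at 19721626, 19997235 and 19947823 bp in the same libraries. The non-targeting library had no off-cut junction on chromosome 14 within 20 Mb, and its nearest member lay at 37645212 bp.

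Distant chromosome 14 was joined to the bait more often per megabase than other chromosomes were in the libraries with the site 1 sgRNA, by 5.14-fold in 10Q, 3.60-fold in sgRNA only and 1.57-fold in 92Q. The distant class covered 81.9 Mb of assembled sequence, and chromosomes 1 to 13, 15 to 19 and X covered 2452 Mb. In the 92Q library the density was 0.354 distant junctions per Mb (0.237 to 0.509), against 0.225 per Mb on other chromosomes. The 10Q library held 4.69 per Mb (4.23 to 5.18), against 0.912 on other chromosomes. In the sgRNA-only library it was 2.23 per Mb (1.92 to 2.58), against 0.620 on other chromosomes. The non-targeting library had 0.0977 per Mb (0.0422 to 0.192), against 0.0412 on other chromosomes. The interval of the fold ran between 1.04 and 2.28 in 92Q, 4.60 and 5.73 in 10Q, and 3.07 and 4.20 in sgRNA only. The 92Q interval reached below 1 with mapping quality of 10 or more (1.62-fold, 0.932 to 2.64), by reads (1.41-fold, 0.942 to 2.03) and with at least 2 reads (1.30-fold, 0.0316 to 8.02). In non-targeting the fold was 2.37, with an interval between 0.997 and 4.85 that includes 1. Upstream of the bait alone it was 2.58 (1.09 to 5.29) and beyond 30 Mb 3.14 (1.32 to 6.42), both excluding 1. Both settings hold the same 8 members over less sequence, so they are not separate results. In non-targeting the fold was 0.950 (0.113 to 3.58) at mapping quality of 30 or more and 0.820 (0.0975 to 3.07) at 10 or more. By reads it was 1.45 (0.687 to 2.73), and each of these intervals includes 1.

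Taken chromosome by chromosome, distant chromosome 14 was denser than each of the 19 other chromosomes in 10Q and in sgRNA only. In 10Q its density was 4.26 times that of the next, chromosome 8 at 1.10 per Mb, and in sgRNA only it was 2.51 times that of chromosome 18 at 0.889 per Mb. In 92Q, 2 other chromosomes stood above it, the highest being chromosome 17 at 0.380 per Mb against 0.354. In non-targeting, 1 stood above it, chromosome 10 at 0.102 per Mb against 0.0977.

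**Figure D1:**
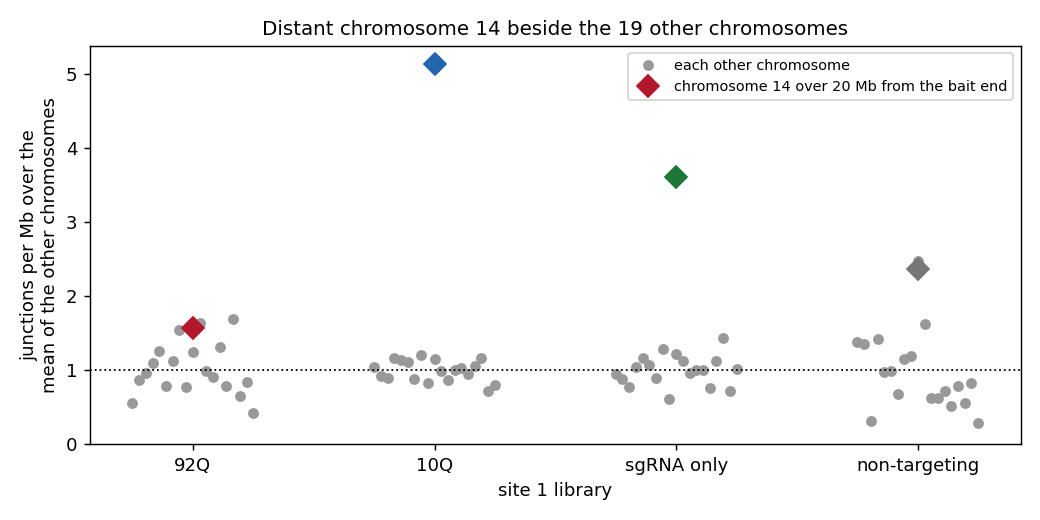
Distinct junctions per Mb on each of the 19 other chromosomes (grey points) and on distant chromosome 14 (diamonds, 1 colour a library), divided by the library's mean density over other chromosomes (vertical axis, dotted line at 1), for each site 1 library. The diamond lies above every point in 10Q (5.14) and sgRNA only (3.60), and among the points in 92Q (1.57) and near the highest in non-targeting (2.37).

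The share that distant junctions took of distant and interchromosomal junctions together was used to compare libraries of unlike size. It was 4.99% in 92Q (29 beside 552 on other chromosomes; 3.37 to 7.09), 14.7% in 10Q (384 beside 2237; 13.3 to 16.1), 10.7% in sgRNA only (183 beside 1520; 9.31 to 12.3) and 7.34% in non-targeting (8 beside 101; 3.22 to 14.0). The 92Q library had a smaller share than 10Q by -9.66 percentage points (two-sided Fisher's exact test, Benjamini-Hochberg adjusted over 4 comparisons, p = 2.92e-11). It also had a smaller share than sgRNA only, by -5.75 points (exact Fisher test, BH-adjusted p = 4.16e-05). The 10Q share exceeded that of sgRNA only by 3.91 points (exact Fisher test, BH-adjusted p = 0.000248). Between sgRNA only and non-targeting the difference was 3.41 points and did not pass (exact Fisher test, BH-adjusted p = 0.334). Among junctions with a mapping quality of 30 or more that difference was 11.8 points (exact Fisher test, BH-adjusted p = 0.0061). Of the 8 non-targeting members, 6 had lower scores.

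Other measures moved with the 92Q library. It held 268 on-cut reads, against 8407 in 10Q, 5964 in sgRNA only and 409 in non-targeting. Single reads supported 96.6% of its distant junctions, against 63.3% in 10Q and 71.0% in sgRNA only. Whether depth contributes to the smaller 92Q share was not tested. Among junctions with at least 2 reads, 92Q kept 1 distant junction, and its difference from 10Q was -14.1 points (exact Fisher test, BH-adjusted p = 0.142).

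Members lay along nearly the whole chromosome. The median distance was 65.8 Mb in 92Q, 50.8 Mb in 10Q, 53.5 Mb in sgRNA only and 63.7 Mb in non-targeting, and the farthest members lay 94.7, 94.6, 94.1 and 90.1 Mb away in that order, near the start of the assembled sequence at 3 Mb. Toward the centromere, upstream of the bait, 75.2 Mb qualified, and toward the telomere, downstream, 6.73 Mb. Upstream there were 27 members in 92Q, 361 in 10Q, 175 in sgRNA only and 8 in non-targeting, and downstream 2, 23, 8 and 0. The upstream density was 4.80 per Mb in 10Q (4.32 to 5.32) and the downstream density 3.42 (2.17 to 5.13). In sgRNA only it was 2.33 per Mb upstream (2.00 to 2.70) and 1.19 downstream (0.513 to 2.34). Downstream counts were below the even expectation of 31.6 in 10Q and 15.05 in sgRNA only and near the 2.38 expected in 92Q. The difference between the arms was not tested.

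**Figure D2:**
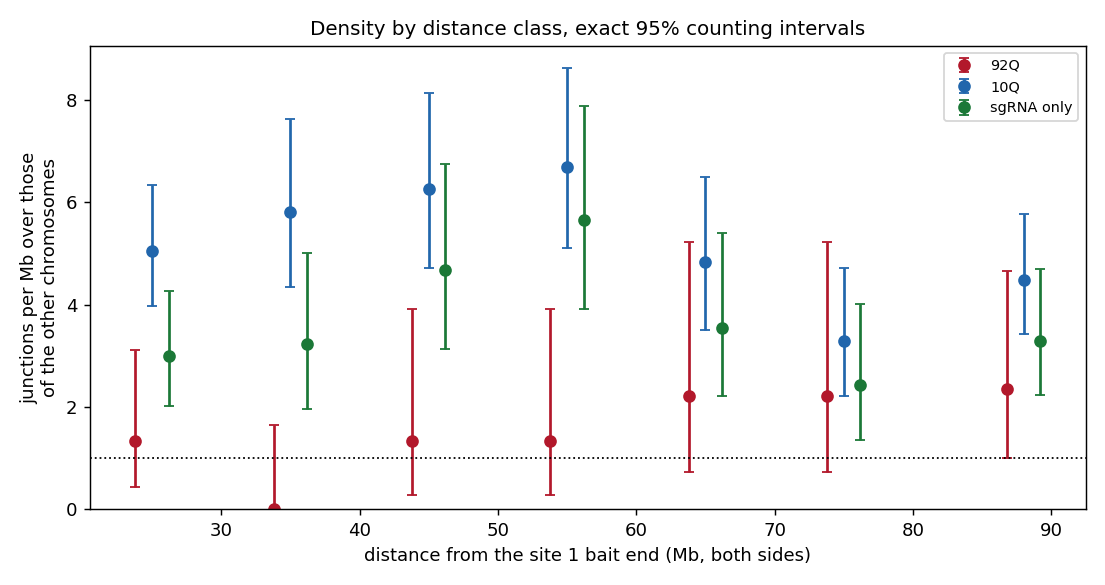
Distant junctions per Mb on both sides of the bait, divided by the interchromosomal density of the same library (vertical axis), by distance from the bait end in classes of 10 Mb (the last 80 to 96 Mb), with 95% counting intervals and a dotted line at 1, for 92Q, 10Q and sgRNA only. In 10Q the classes lie between 3.29 and 6.69 and in sgRNA only between 2.42 and 5.65, with no steady fall over distance.

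Beyond 20 Mb the density showed no steady decline with distance. In 10Q it was 4.60 per Mb at 20 to 30 Mb, 5.30 at 30 to 40, 5.70 at 40 to 50, 6.10 at 50 to 60, 4.40 at 60 to 70, 3.0 at 70 to 80 and 4.09 at 80 to 96 Mb. In sgRNA only the same classes held 1.85, 2.00, 2.90, 3.50, 2.20, 1.50 and 2.04 per Mb. By these values both libraries were highest at 50 to 60 Mb and lowest at 70 to 80 Mb, but with mapping quality of 30 or more the peak at 50 to 60 Mb was not kept in either. For 92Q the classes held 5, 0, 3, 3, 5, 5 and 8 members.

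The upstream stretches at 20 to 50 Mb and beyond 50 Mb were also compared directly. In 10Q the nearer stretch held 5.47 per Mb and the farther 4.36, a ratio of 1.25 (1.01 to 1.55; exact binomial test, adjusted over 3 libraries, p = 0.108). In sgRNA only they held 2.40 and 2.28 per Mb, a ratio of 1.05 (0.768 to 1.44; exact binomial test, adjusted p = 0.758). In 92Q they held 0.200 and 0.465 per Mb, a ratio of 0.430 (0.142 to 1.10; exact binomial test, adjusted p = 0.114). Counting reads in place of distinct junctions gave 10Q a ratio of 1.31 (exact binomial test, adjusted p = 0.00417), but reads of 1 junction are not independent. With mapping quality of 30 or more, the 10Q class at 80 to 96 Mb was 4.26-fold above the interchromosomal density (2.69 to 6.44), and the 6 nearer classes were 7.03- to 8.72-fold above it. In sgRNA only the same classes, by rising distance, were 5.53-, 5.47-, 7.99-, 5.47-, 6.31-, 2.94- and 3.60-fold above it.

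In 10Q and sgRNA only the distant junctions fell in each of the 18 bins of up to 5 Mb, and few bins departed from an even spread. In 92Q 5 bins were empty and in non-targeting 11. A bin was called where its 95% Poisson interval excluded the expectation. In the 14 full bins 92Q held 0 to 5 members (median 2), 10Q 12 to 37 (median 23.5), sgRNA only 5 to 22 (median 9) and non-targeting 0 to 2 (median 0.5). Against the even expectation, 10Q had 2 of 18 bins called, 1 above and 1 below. The bin at 45 to 50 Mb held 37 members, 1.58 times the even expectation (1.11 to 2.18), and the bin at 20 to 25 Mb held 12, or 0.512 times (0.265 to 0.894). In sgRNA only 1 bin was called, 40 to 45 Mb, with 22 members, 1.97 times the expectation (1.23 to 2.98). No bin was called in 92Q or non-targeting. Of the 513 bins on other chromosomes, set against an even spread over those chromosomes, the same rule called 2.53% in 92Q, 6.43% in 10Q, 3.70% in sgRNA only and 2.73% in non-targeting. An empty bin has an upper limit of 3.69, so a bin expecting fewer could not be called low. That held for every bin of 92Q and non-targeting, and for those of sgRNA only on other chromosomes. The called bins on distant chromosome 14 are too few to read against the shares on other chromosomes. The variance of the full bins divided by their mean was 1.39 in 92Q, 1.95 in 10Q and 2.31 in sgRNA only. On other chromosomes it was 1.36, 2.17 and 2.22 in the same libraries. Random placement at an even density gives about 1. For the same relative unevenness the value rises with the mean count, which was higher on distant chromosome 14, so like values do not mean like evenness.

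Against the interchromosomal density, by contrast, most bins stood high. All 18 bins were called above it in 10Q and 12 of 18 in sgRNA only, whose other 6 bins also held more than expected without passing. In 92Q 1 bin was called and 11 held more than expected, and in non-targeting 1 was called and 7 held more. The share of bins called above it on other chromosomes was 2.53% in 92Q, 4.29% in 10Q, 3.70% in sgRNA only and 2.73% in non-targeting. Over the 14 full bins the 10Q and sgRNA-only counts had a Pearson correlation of 0.573 and a Spearman correlation of 0.566, given as a description, since bins of both libraries share the same sequence and its ease of mapping.

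**Figure D3:**
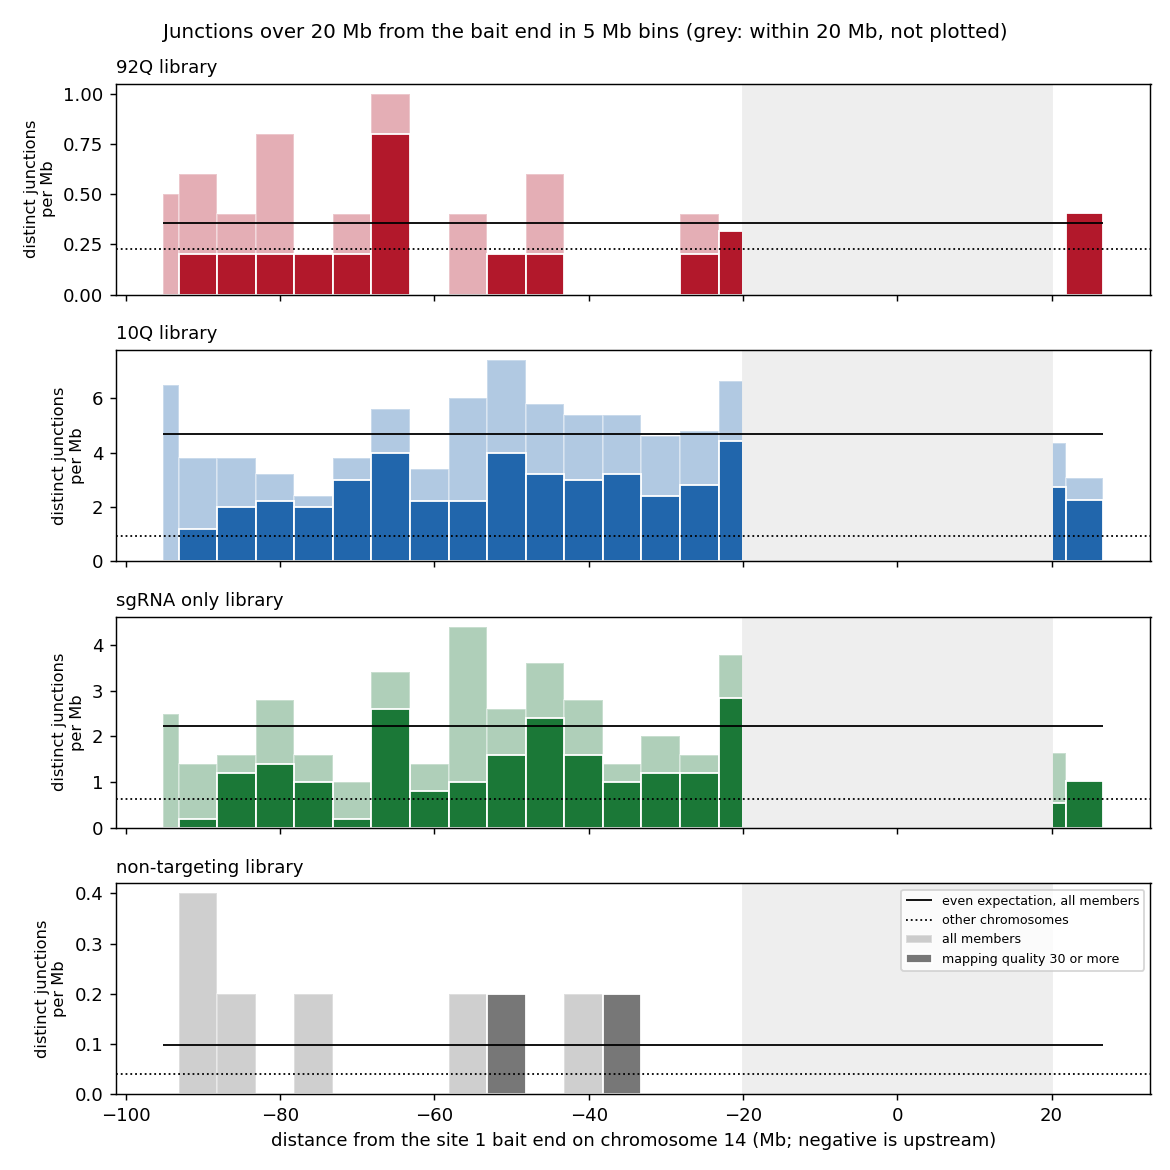
Distant junctions per Mb (vertical axis, its own scale in each library) in 5 Mb bins along chromosome 14 by distance from the bait end, with members of mapping quality 30 or more in the darker shade, a solid line at the even expectation and a dotted line at the density on other chromosomes. In 10Q each of 18 bins rises above the dotted line, and the leftmost, at 3 to 5 Mb, has no member of quality 30 or more.

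Mapping quality differed along the chromosome. In the bin at 3 to 5 Mb none of the 1 member of 92Q, 13 of 10Q and 5 of sgRNA only reached a mapping quality of 30, and the highest scores were 1, 2 and 6. Of the 32 protein-coding genes in that bin, 30 have Gm names, which are given to predicted mouse genes. At 5 to 10 Mb, where 41 of 59 genes have Gm names, 6 of 19 members reached 30 in 10Q and 1 of 7 in sgRNA only. The bin at 40 to 45 Mb, the called bin of sgRNA only, has 40 Gm genes among 62, and there 5 of 22 members reached 30 in sgRNA only (22.7%) and 11 of 30 in 10Q (36.7%). With quality of 30 or more, that bin was at 0.803 times the even expectation in sgRNA only, and the 10Q bin at 45 to 50 Mb was at 1.51 times (0.922 to 2.33), so neither call was kept. The low bin of 10Q at 20 to 25 Mb was at 0.755 times (0.362 to 1.39) and was not called either. Other bins were called high at this quality: 30 to 35 Mb in 92Q (4 members, 4.37 times, 1.19 to 11.2) and in sgRNA only (13 members, 2.09 times, 1.11 to 3.57), and 75 to 78 Mb in sgRNA only (9 members, 2.28 times, 1.04 to 4.33). Called low were 3 to 5 and 5 to 10 Mb in 10Q, and 5 to 10 and 25 to 30 Mb in sgRNA only. The share of bins called on other chromosomes at this quality was not computed, so these calls have no background beside them.

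As a class, however, distant junctions mapped better than interchromosomal ones in the 2 larger libraries. In 10Q 56.5% of them reached a quality of 30 (217 of 384; 51.4 to 61.5), against 39.0% on other chromosomes, 17.5 points more (Fisher's exact test, adjusted over 4 libraries, p = 7.49e-10). In sgRNA only it was 55.7% (102 of 183; 48.2 to 63.1), against 38.4%, 17.4 points more (exact Fisher test, BH-adjusted p = 1.97e-05). For 92Q it was 51.7% (15 of 29; 32.5 to 70.6), against 44.4%, a difference of 7.34 points (exact Fisher test, BH-adjusted p = 0.450). The non-targeting library went the other way, with 25.0% (2 of 8; 3.19 to 65.1) against 62.4%, a difference of -37.4 points (exact Fisher test, BH-adjusted p = 0.0786). At a threshold of 10 that gap was -47.3 points (exact Fisher test, BH-adjusted p = 0.0146), and among junctions with at least 2 reads the sgRNA-only gap was 12.9 points (exact Fisher test, BH-adjusted p = 0.156).

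The gap lay mostly between scores of 1 to 9 and the top score. Scores of 1 to 9 made up 18.2% of distant junctions in 10Q and 25.1% in sgRNA only, against 34.0% and 36.2% on other chromosomes. The top score of 42 was held by 50.3% in 10Q and 48.1% in sgRNA only, against 34.3% and 33.5% on other chromosomes. It was not confined to junctions read more than once. Among 1-read junctions of 10Q, 47.3% of distant and 31.1% of interchromosomal ones reached 30, and among those with 2 or more reads 72.3% and 59.0% did. Nearer chromosome 14 junctions, up to 20 Mb, had 62.1% at 30 or more in 10Q and 66.9% in sgRNA only.

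Restricted to quality of 30 or more, distant chromosome 14 stood further above other chromosomes: 7.45-fold in 10Q (6.39 to 8.65, 217 members), 5.24-fold in sgRNA only (4.20 to 6.47, 102 members) and 1.83-fold in 92Q (1.01 to 3.08, 15 members). In non-targeting it was 0.950-fold (0.113 to 3.58, 2 members). The order of the libraries carrying the site 1 sgRNA was thus the same with and without this filter, and in it 92Q differed from 10Q by -14.2 points of the distant share (exact Fisher test, BH-adjusted p = 1.83e-08).

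**Figure D4:**
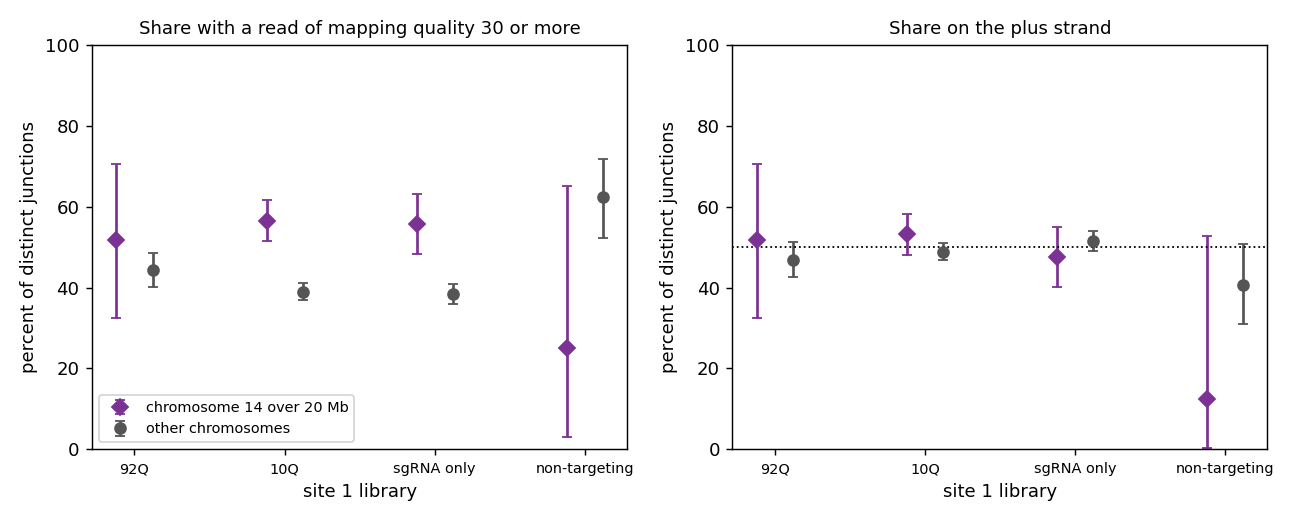
Percent of junctions with mapping quality of 30 or more, and percent on the plus strand, for distant chromosome 14 and for other chromosomes in each library, with 95% Clopper-Pearson intervals. Distant junctions stand above other chromosomes in quality in 10Q (56.5% against 39.0%) and sgRNA only (55.7% against 38.4%), and near 50% for strand in the 3 libraries with the site 1 sgRNA.

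Prey strand tells the kind of rearrangement. The strand of the bait was not tabulated here, and the orientations that follow assume that it was read on the plus strand. Where both ends lie on the same copy of the chromosome, an upstream prey on the plus strand has the orientation of an excised circle or tandem duplication, a downstream prey on the plus strand that of a deletion, and a minus-strand prey on either side that of an inversion. In 92Q 15 of 29 members were on the plus strand, 51.7% (32.5 to 70.6). In 10Q 204 of 384 were, 53.1% (48.0 to 58.2), and in sgRNA only 87 of 183, 47.5% (40.1 to 55.0). None of these departed from 50% past the threshold (exact binomial test, adjusted over 4 libraries, p = 1 in 92Q, 0.481 in 10Q and 0.739 in sgRNA only). In non-targeting 1 of 8 was on the plus strand, 12.5% (0.316 to 52.7; exact binomial test, adjusted p = 0.281). Upstream, 14 of 27 members were plus in 92Q, 192 of 361 in 10Q and 85 of 175 in sgRNA only. Downstream, 1 of 2, 12 of 23 and 2 of 8 were plus in the same libraries. With the limit lowered to 10 Mb, the 10Q plus share was 55.6% (exact binomial test, adjusted p = 0.0471). The plus share differed from that of other chromosomes by 4.80 points in 92Q, 4.31 in 10Q, -3.97 in sgRNA only and -28.1 in non-targeting (exact Fisher test, BH-adjusted p = 0.704, 0.298, 0.464 and 0.298).

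Gene bodies were hit about as often as their length gives. Protein-coding genes cover 48.1% of the distant sequence, and they held 51.7% of members in 92Q (15 of 29; 32.5 to 70.6), 45.3% in 10Q (174 of 384; 40.3 to 50.4), 51.9% in sgRNA only (95 of 183; 44.4 to 59.3) and 50.0% in non-targeting (4 of 8; 15.7 to 84.3). With quality of 30 or more the shares were 46.7% in 92Q, 53.0% in 10Q and 56.9% in sgRNA only. Of 793 protein-coding genes that lay wholly in the distant sequence, 181 held at least 1 of the 604 members. Gene counts below pool the 4 libraries, are set against an even spread over the distant sequence, and carry no test, because the genes with most members were picked by those counts.

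Fhit, the diadenosine triphosphate hydrolase gene that spans a common fragile site, held the most members, 13. At chr14:9550092-11162061 it is 1612 kb long, and 11.9 members were expected by its length, a ratio of 1.09 (0.582 to 1.87). It held 0 in 92Q, 10 in 10Q, 3 in sgRNA only and 0 in non-targeting, and 6 of the 13 had a mapping quality of 30 or more. Its count was close to what an even spread over its length would give. In it, 2 10Q junctions on the plus strand, at 10051551 and 10051553, lay 2 bp apart with mapping qualities of 42 and 0.

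Samd4, which encodes the Smaug RNA-binding translational repressor, held 7 members in 223 kb at chr14:46882965-47105817, where 1.64 were expected, a ratio of 4.26 (1.71 to 8.78). These were 0 in 92Q, 2 in 10Q, 5 in sgRNA only and 0 in non-targeting. The 5 of sgRNA only all lay on the minus strand, between 46916977 and 47075473, and the 10Q pair lay between them at 46976959 (minus) and 46994262 (plus). Tmem260, a mannosyltransferase gene at chr14:48446123-48560183, held 4 where 0.841 was expected (ratio 4.76, 1.30 to 12.2), 3 of them in 10Q and 1 in sgRNA only. Arhgap22 held 4 where 1.15 were expected (ratio 3.48, 0.948 to 8.91), 1 in 92Q and 3 in sgRNA only, all with quality of 30 or more.

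The remaining genes with most members follow. Like Samd4, Tmem260 and Arhgap22, they were picked by their counts, so their intervals describe the counts and test no excess. Nrg3, a ligand of the ErbB4 receptor, held 3 in 10Q and 3 in sgRNA only, with 8.17 expected over all libraries. Rarb, a retinoic acid receptor, held 3 and 3 in the same libraries with 4.80 expected. Ube2e2, a ubiquitin-conjugating enzyme gene, held 1 in 92Q, 3 in 10Q and 1 in sgRNA only with 2.37 expected, a ratio of 2.11 (0.686 to 4.93). Atp8a2 (a phospholipid flippase), Cacna1d (an L-type calcium channel), Erc2 (a presynaptic active zone protein), Hs6st3 (a heparan sulfate sulfotransferase) and Ptprg (a receptor tyrosine phosphatase) held 5 each, with 3.24 to 6.31 expected. Enox1 held 4 with 4.17 expected, and Fndc3a held 4 with 1.27 expected, a ratio of 3.14 (0.855 to 8.04).

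A list picked by hand, mostly of long genes and many of them for ion channels or synaptic proteins, was also counted. It includes shorter genes such as Camk2g and Htr2a and genes that are not particular to nerve cells, and Fhit gave 13 of its members. Of its 24 genes in the distant sequence, 21 held a member and their median was 2, against a median of 0 over all 793 genes. Together they held 71 members where their length gave 99.6, a ratio of 0.713 (0.557 to 0.899), beside 0.989 for all 793 genes (293 members). By library they held 2 in 92Q where 4.78 were expected, 51 in 10Q where 63.3 were, 18 in sgRNA only where 30.2 were, and 0 in non-targeting where 1.32 were. With quality of 30 or more, a setting chosen after the data were seen, they held 42 and the ratio was 0.758 (0.546 to 1.02). The 12 genes of 500 kb or more each held a member, 53 in all, where 75.6 were expected (ratio 0.701, 0.525 to 0.917). All 12 belong to the hand-picked list and gave 53 of its 71 members, so this ratio is not a separate result.

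Among the genes of 500 kb or more, Grid1, Fgf14 and Lrmda had the lowest counts for their length. Grid1, a delta-type glutamate receptor gene at chr14:34820003-35583387, held 1 member, in sgRNA only, where 5.63 were expected (ratio 0.178, 0.0045 to 0.990). Lrmda at chr14:22019504-23056093 held 2, both in 10Q, where 7.64 were expected (ratio 0.262, 0.0317 to 0.945). Fgf14, a regulator of sodium channels, held 1 in 10Q with 5.19 expected (ratio 0.193, 0.00488 to 1.07). Kcnma1, the BK potassium channel gene, held 2 in 10Q with 5.26 expected. Cacna2d3, an auxiliary calcium channel subunit gene, held 2 in 10Q and 1 in sgRNA only with 6.03 expected. Camk2g, Dlg5 and Itgbl1 of the 24-gene list held 0.

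**Figure D5:**
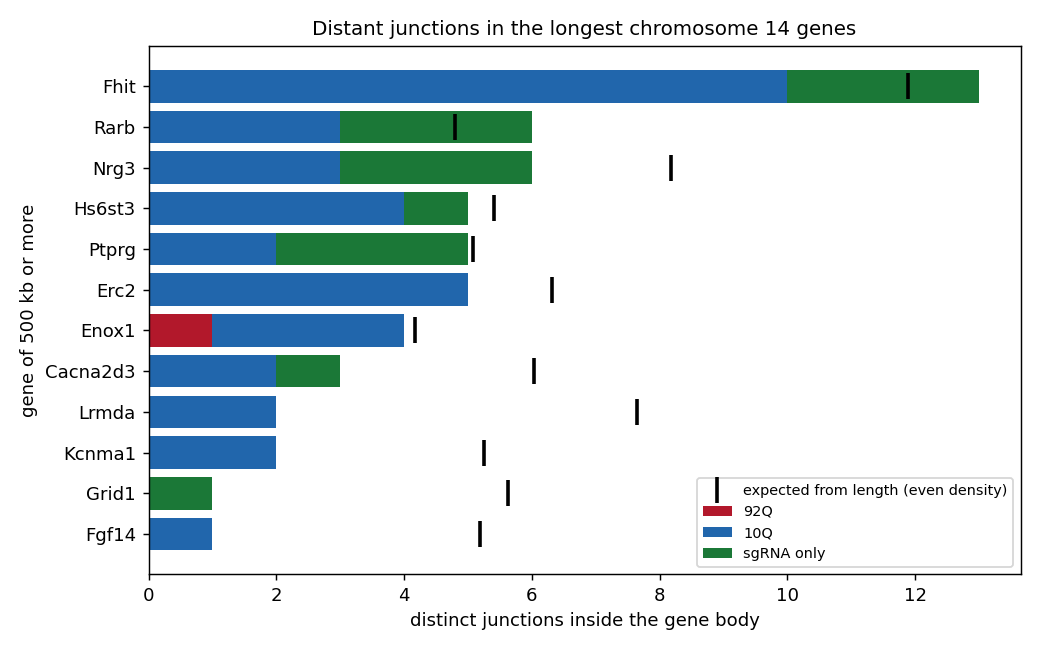
Distant junctions (horizontal axis) inside each of the 12 genes of 500 kb or more, stacked by library, with a black mark at the number expected from the gene's length over all 4 libraries; non-targeting had none in them. Fhit (13 against 11.9) and Rarb (6 against 4.80) pass their marks, and the other 10 genes stop short of theirs.

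Tandem gene families, in which near-identical copies make a read's place uncertain, are too short here for more than a few members. The 39 olfactory receptor genes held 2, both in 10Q, where 0.591 was expected (ratio 3.38, 0.410 to 12.2). The 20 ribonuclease A family genes held 2, both in sgRNA only, where 0.615 was expected (ratio 3.25, 0.394 to 11.8). The 2 vomeronasal receptor genes held 0 with 0.132 expected, and the 7 granzyme genes held 0 with 0.279 expected. The T cell receptor alpha and delta locus, at chr14:52427967-54224198 with 198 listed segments, is rearranged by RAG recombination in lymphocytes. It held 0 members in 92Q, 8 in 10Q, 6 in sgRNA only and 0 in non-targeting, where an even spread gave 0.636, 8.42, 4.01 and 0.175.

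Recurrent places were also counted, with no expectation computed for clusters. With members chained when no more than 10 kb apart, 10Q had 1 cluster of at least 3 and the other libraries had none of their own. It lay at chr14:63256358-63280051 across 1 end of Gata4, a zinc finger transcription factor gene, and held 6 junctions from 9 reads, 4 on the plus strand and 4 with quality of 30 or more. An sgRNA-only member at 63283248 lay within 10 kb of it. Pooling the 4 libraries gave 4 further clusters. One in Ccdc66 had 1 member of 92Q and 2 of 10Q, one in Tmem260 had 2 of 10Q and 1 of sgRNA only, and one near Gm8104 had 2 of 10Q and 2 of sgRNA only with 0 at quality of 30 or more. In Abhd6, a lipid hydrolase gene, junctions of 10Q, sgRNA only and non-targeting fell within 7 bp of each other, at chr14:8047445-8047452. None of these 3 reached a quality of 30, and 1 of them came from the library with no site 1 break.

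Places shared between libraries were counted with no expectation and no share from other chromosomes beside them, so whether they are few was not tested. Within 1 kb of a member of another site 1 library lay 1 member of 92Q (3.45%), 5 of 10Q (1.30%), 4 of sgRNA only (2.19%) and 1 of non-targeting (12.5%). Exactly the same position and strand occurred in 3 pairs of libraries. One, at 45692723 on the plus strand, was in 92Q and 10Q with mapping qualities of 40 and 42. Another, at 121881313 on the minus strand in Ubac2, had 4 reads in 10Q and 1 in sgRNA only. The other was the Abhd6 position 8047445 on the minus strand, with 1 read each in sgRNA only and non-targeting. No member lay within 1 kb of an off-cut junction of the site 2 libraries.

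Site 2, the other bait of the series, lies at chr14:52181662 in Supt16, which encodes part of the histone chaperone FACT, 46.0 Mb from site 1. By their labels the site 1 libraries carried no site 2 sgRNA. For the sgRNA-only library this rests on the label, which the design text does not list. No member lay in Supt16 itself. Within 1 Mb of the site 2 bait end were 0 members of 92Q, 13 of 10Q (6.92 to 22.2), 8 of sgRNA only (3.45 to 15.8) and 0 of non-targeting, where an even spread gave 0.708, 9.38, 4.47 and 0.195. A narrower window, of 200 kb, was not planned beforehand, and its counts carry no interval or test. Within 200 kb were 0 of 92Q, 3 of 10Q, 6 of sgRNA only and 0 of non-targeting, with 0.142, 1.88, 0.894 and 0.0391 expected. All 9 had a mapping quality of 42. The 6 of sgRNA only lay 59.2 to 145 kb on the centromeric side. They were in or near Hnrnpc, an RNA-binding protein gene, in Rpgrip1, a gene of the photoreceptor cilium, or near the olfactory receptor gene Olfr221. The nearest of all, at 52206968 in Chd8, a chromatin remodeller gene, was a 10Q junction with 3 reads, 25.3 kb away.

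The 29 junctions of 92Q were scattered over the chromosome. Between 3.5 and 8.4 Mb lay 4, at 3500961, 7011342, 7705454 and 8398997, with mapping qualities of 1, 1, 42 and 0. At chr14:12341605 a plus-strand junction of quality 40 fell in Fezf2, a transcription factor gene of cortical projection neurons, and at 13383269 one of quality 23 fell in Synpr, a synaptic vesicle protein gene. Others of quality 42 fell in Fam149b at 20357895, in Il17rd, an antagonist of FGF signalling, at 27040486, in Chat, the choline acetyltransferase gene, at 32455033, in Acin1 at 54671659 and in Enox1 at 77478387. The Arhgap22 junction at 33352275 had quality 40. A pair at 50892509 and 50892512 in Klhl33, 3 bp apart on the plus strand, had qualities of 3 and 23. The one at 27492056 in Ccdc66 was the only 92Q member with 2 reads, and its quality was 3. Downstream of the bait both 92Q members lay beside Mbnl2, 30.0 kb before it at 120245665 and 0.039 kb before it at 120275613, on opposite strands and with quality 42.

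The non-targeting members set a background measured with the same primer. Of the 8, 5 had a mapping quality of 0, 1 had 8 and 2 had 42, at 47558144 in Atg14, an autophagy gene, and at 60523514 in Spata13, a guanine nucleotide exchange factor gene. One had 3 reads, at 8329935 with quality 0, and the others 1 each.

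Of 1202 promoter windows in the distant sequence, each 250 bases before to 50 after a gene start, 3 held a member, and 2 of those members had a mapping quality of 30 or more. Both windows are shown so that the joined sequence can be read; they are from RefSeq on GRCm38.p6, the assembly of mm10, 5′ to 3′ on the plus strand, with the bases covered by the prey read in capitals. In the Mbnl2 window (a splicing regulator gene; chr14:120275419-120275718) a 92Q junction lay at 120275613 on the minus strand, 56 bases before the start that the promoter table uses and with 1 read, so its read runs leftward from the last capital. In the Cgrrf1 window (a RING finger protein gene; chr14:46831884-46832183) a 10Q junction lay at 46832049 on the plus strand, 85 bases before the start and with 2 reads, so the read runs rightward from the first capital.
Mbnl2 promoter: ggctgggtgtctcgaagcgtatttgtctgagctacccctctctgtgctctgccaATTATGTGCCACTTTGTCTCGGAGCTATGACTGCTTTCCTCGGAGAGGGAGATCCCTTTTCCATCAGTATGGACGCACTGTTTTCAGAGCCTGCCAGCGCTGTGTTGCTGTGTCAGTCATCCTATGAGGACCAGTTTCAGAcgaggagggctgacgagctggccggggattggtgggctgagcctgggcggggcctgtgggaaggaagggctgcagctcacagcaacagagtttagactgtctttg
Cgrrf1 promoter: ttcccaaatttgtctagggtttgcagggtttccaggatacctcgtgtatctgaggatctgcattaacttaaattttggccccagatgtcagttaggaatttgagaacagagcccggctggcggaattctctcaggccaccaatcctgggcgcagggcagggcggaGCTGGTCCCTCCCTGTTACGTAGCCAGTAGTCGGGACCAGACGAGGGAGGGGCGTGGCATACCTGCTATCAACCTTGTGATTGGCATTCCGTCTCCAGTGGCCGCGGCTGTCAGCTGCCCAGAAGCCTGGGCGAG

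The sgRNA was set against these windows after they were seen. The longest run of its letters in the Mbnl2 window, on either strand, was CAGCGCTGT, 9 letters in the sgRNA's own orientation and inside the capitals, which 85 of 32817 promoter windows hold on 1 strand or the other (0.259%). In the Cgrrf1 window the longest was GATGTC, 6 letters, held by 11.6% of windows. Both shares are for the 1 run picked from that window. The share of windows that hold any sgRNA run of that length was not computed and can only be as large or larger. Such a match is a description of the letters and does not mark a Cas9 site.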

How the data were processed

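The authors deposited, for each library, an on-cut and an off-cut list of aligned prey reads, with 1 measured value a line: the mapping quality, a score of at most 42. Bowtie2, mm10 and mm9 are named per the submitters' processing notes, with no version or role. Filters, and how on-cut and off-cut reads were told apart, were not given in the sources used here. The lists were read on mm10, and the bait end was the 5′ position that most non-targeting on-cut reads had.

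Lines of the site 1 off-cut lists with the same chromosome, 5′ end and strand were collapsed to 1 junction, whose mapping quality is the highest of its reads. The members and the gene lists were chosen with earlier results of these data known. Distances, bins and densities left out the unassembled first 3 Mb of each chromosome, and chromosome Y was left out. Gene bodies came from the RefSeq gene table for GRCm38.p6 (21523 protein-coding genes, no exons or UTRs). Site 1 had 1 library per condition, grouped by its label, so no mean or SD was formed. Shares were compared by Fisher's exact test and counts by the exact binomial test, both two-sided with Benjamini-Hochberg adjustment within each family at 0.05, in Python 3.11.15 with numpy 2.4.6, pandas 2.3.3 and scipy 1.17.1. Figures used matplotlib 3.10.9. The bin calls were tried on simulated sets of about the size of the 10Q library, and not on sets as small as those of the other libraries. Named genes were the 12 with most members, ties kept and at least 3 each, every gene of 500 kb or more, a hand-picked list of mostly long genes, many of them neural, Supt16, and the gene at or nearest each cluster; other junctions were named after their values were seen. Alternatives were a mapping quality of 10 or 30 or more, reads in place of junctions, junctions merged within 5 bp, clusters counted once, junctions near non-targeting ones left out, at least 2 reads, limits of 10 and 30 Mb, bins of 2 and 10 Mb, and a boundary of 40 Mb in place of 50 Mb.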

Additional observations from a re-analysis of the deposited data

How the results depend on the processing

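Of 295 values recomputed, 246 were kept, 35 moved, 9 passed a threshold they had missed, 3 no longer passed and 2 reversed. Tests were kept by direction and side of the threshold, and folds and genic shares by staying within the main interval. Bin counts were kept by a fixed limit on their ratio to the main count, with no error interval. With mapping quality of 30 or more, bins called against an even spread numbered 1 in 92Q and 4 in sgRNA only, the density fold was 7.45 in 10Q, 5.24 in sgRNA only and 0.950 in non-targeting, the genic share was 53.0% in 10Q, and sgRNA only exceeded non-targeting by 11.8 points (exact Fisher test, BH-adjusted p = 0.0061). With 10 or more, called bins were 1 in 92Q, 4 in 10Q and 3 in sgRNA only, the fold was 7.35, 4.85 and 0.820 in 10Q, sgRNA only and non-targeting, the genic share was 52.2% in 10Q, the sgRNA-only excess was 11.3 points (exact Fisher test, BH-adjusted p = 0.00342), and the non-targeting quality gap was -47.3 points (exact, adjusted p = 0.0146). Counting reads called 4 bins in 10Q, 5 in sgRNA only and 1 in non-targeting. By reads the sgRNA-only excess was 6.03 points (exact Fisher test, BH-adjusted p = 0.00322), the 10Q nearer-to-farther ratio 1.31 (exact binomial test, adjusted p = 0.00417), the 10Q strand difference 5.90 points (exact Fisher test, BH-adjusted p = 0.0323) and the non-targeting quality gap -50.4 points (exact Fisher test, BH-adjusted p = 0.00266), and the 92Q quality gap reversed to -0.157 points (exact Fisher test, BH-adjusted p = 1). Merging within 5 bp called 2 bins in sgRNA only. With at least 2 reads the fold was 6.68 in 10Q and 0.809 in non-targeting, 1 bin departed from even in 10Q, 7 stood above the interchromosomal density in sgRNA only, the genic share was 56.0% in 10Q, and calls were lost for 92Q against 10Q (-14.1 points, adjusted p = 0.142), 92Q against sgRNA only (-8.07 points, 0.339) and the sgRNA-only quality gap (12.9 points, 0.156), all by Fisher's exact test. The 30 Mb limit called 2 bins in sgRNA only. The 10 Mb limit called 5 in 10Q and 4 in sgRNA only, the genic share was 44.1% in sgRNA only, and the 10Q plus share was 55.6% (exact binomial test, adjusted p = 0.0471), 6.74 points above other chromosomes (exact Fisher test, BH-adjusted p = 0.0236). Bins of 10 Mb gave 0, 10 and 0 above the interchromosomal density in 92Q, 10Q and non-targeting and 2 off even in sgRNA only. Bins of 2 Mb gave 2 and 36 above it in 92Q and 10Q and 1, 3 and 1 off even in 92Q, sgRNA only and non-targeting. With the boundary at 40 Mb the sgRNA-only ratio reversed to 0.899 (exact binomial test, adjusted p = 0.608). The cause of each change was not tested. Alternatives that left fewer than 3 members gave no share or bin value. The share of bins called on other chromosomes was computed for the main setting alone, so bin calls under the alternatives have no background. No paired analysis was possible because each condition had 1 library and the labels give no replicate numbers. The 8 non-targeting and 29 92Q members limit what their bins and shares can show.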

Other observations

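Some distant junctions were read several times. In 10Q the highest counts were 6 reads each at chr14:73667349 on the plus strand, 71.2 kb from Sucla2, and at 121735518 on the plus strand in Dock9, a guanine nucleotide exchange factor gene. Junctions with 5 reads in 10Q included 27736866 in Erc2, 119454081 in Hs6st3, and 65716652 in Scara5, a scavenger receptor gene, the last with a mapping quality of 8. In sgRNA only the highest count was 5, at 48087819, 57177111 and 59194669. Reads per distant junction averaged 1.03 in 92Q, 1.57 in 10Q, 1.49 in sgRNA only and 1.25 in non-targeting. Neighbouring members of 1 library lay a median of 1381 kb apart in 92Q, 140 kb in 10Q, 252 kb in sgRNA only and 4656 kb in non-targeting.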
